A study of Mus musculus with 20 samples.

Results

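The genes described here make cholesterol and fatty acids. They were chosen by symbol from a list of 33 genes that covers the regulators of the SREBP pathway, the enzymes of the mevalonate route, the enzymes from squalene to cholesterol, a sterol carrier, and the enzymes that build, elongate and desaturate fatty acids. All 33 were measured, out of 13688 genes present in all 4 deposited tables. The study sequenced total RNA of primary cortical neurons that were isolated from mouse embryos at day 15 and cultured for 7 days. Strain C57BL/6N-Cdr1asem1Nikr is given for every library, and the genotype was either wild type (WT) or a knockout (KO) of ciRS-7, a circular RNA whose gene is listed as Cdr1as. The N_WT and N_KO cultures stayed in normoxia for 12 h in medium with 25 mM glucose and added pyruvate. The OGD_WT and OGD_KO cultures spent 12 h at 1% oxygen in the same base medium without either addition, a culture model of ischemia called oxygen and glucose deprivation (OGD). Both conditions had 5% carbon dioxide, and each of the 4 groups had 5 libraries, described as biological replicates in the series text. The OGD samples therefore differed from the N samples in oxygen, glucose and pyruvate at once, and these cannot be told apart.

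Cholesterol and fatty acids are both built from acetyl-CoA. The mevalonate route joins acetyl-CoA units into farnesyl diphosphate, a pair of these gives squalene, and a chain of enzymes in the endoplasmic reticulum turns squalene into cholesterol, using molecular oxygen at several steps. Fatty acid synthesis starts from malonyl-CoA, and the desaturases that put double bonds into the finished chains also need oxygen. Genes of both routes are switched on by the SREBP transcription factors, which SCAP escorts to the Golgi for cleavage when sterols are low and which INSIG proteins hold back when sterols are high. Neurons make part of their own cholesterol during development, and astrocytes supply much of it later.

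Expression is given as log2 CPM, the log2 of reads scaled for the size of the library, with the authors' clipping of extreme libraries undone. The deposited values are not scaled to the plain read total of a library. On the scale of library totals the median log2 fold change of all genes under OGD was -0.30 in WT and -0.28 in KO. On the scale used here it was -0.03 and 0.0027. Between 7071603 and 16658617 reads were recovered from a library. For the members themselves they ranged from 25 reads (Ebp) to 22172 reads (Scd2) in a library. Cdr1as had 700 to 1365 reads in the N_WT libraries and 545 to 1912 in OGD_WT, against 5 to 16 in N_KO and 2 to 14 in OGD_KO, which checks the genotype labels. Replicates 1 and 3 stood apart from the other libraries in every group. They held the lowest or highest value of their group in 1.27% to 12.4% of genes, where 40% would be even, and replicates 2, 4 and 5 held it in 59.7% to 67.1%. A weighted sum of the reads of replicates 2, 4 and 5 came close to replicates 1 and 3. The squared residual of the median gene was 1.56 to 1.86 times the variance from counting reads for replicate 3 of WT, 1.97 to 5.86 times for replicate 3 of KO and 4.24 to 6.16 times for replicate 1, where counting error alone gives 1. For replicates 2, 4 and 5, each set against a sum of the other 4 libraries, it was 13.4 to 45.7 times. Whether replicates 1 and 3 are mixtures or averages of the other cultures cannot be told from the labels. If they are, n = 5 and the counts of 5 cultures given below include libraries that are not independent, and the standard errors and p-values of the fits on all libraries are too small. The counts of called members and many results of single members are therefore also given with replicates 2, 4 and 5 only. All 12 neuron markers examined were measured, while 11 of 12 microglia markers were in none of the tables. The summed level of the 10 measured astrocyte markers lay between 9.49 and 9.86 log2 CPM in N_WT and between 10.5 and 10.8 in OGD_WT, and between 9.37 and 9.85 in N_KO and 10.3 and 10.7 in OGD_KO. The part that a shift in cell types, or in RNA per cell, has in the changes below was not tested, and in bulk RNA fewer cells of a type and less RNA per cell cannot be told apart.

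The short stretches of promoter that many of these genes share are shown first. SREBP binds sterol regulatory elements together with NF-Y, a factor that recognises the CCAAT box. Promoter windows from RefSeq (GRCm38.p6, 250 bases before to 50 bases after the annotated start) were matched for 26 of the 33 members and searched on both strands. CCAAT was found in 21 of 26 (80.8%), against 41.1% of all 27025 genes with a window and 43.6% of the 9882 measured ones. In 20 of them it lay before the start, in 15 of these on the strand opposite to the gene. The stretches nearest to the start are printed below for 6 enzymes that were lower under OGD in both genotypes and 3 genes that passed the test in neither. Each is written 5′ to 3′ on the strand that carries the box, with CCAAT in capitals. The printed stretches are a selection from the 20. In all of those printed except Fasn the box is followed by ca. In those not printed it is followed by other bases, such as cg in Dhcr7 and ga in Nsdhl and Hmgcs1. The ca is therefore not a trait of the 20 as a whole.

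Hsd17b7 (chr1:169969203-169969227, plus strand, 12 bases before the start): cgcacctcgaCCAATcaaggctcgg
Mvk (chr5:114444245-114444269, minus strand, 14 bases before the start): cttcctgaggCCAATcagagagctg
Mvd (chr8:122443435-122443459, minus strand, 27 bases before the start): ggccagcgggCCAATcatatggcag
Tm7sf2 (chr19:6067883-6067907, plus strand, 47 bases before the start): agcacagtagCCAATcagcgctggg
Ebp (chrX:8193553-8193577, plus strand, 55 bases before the start): atctgacgaaCCAATcagtacaggg
Fasn (chr11:120824592-120824616, plus strand, 59 bases before the start): cacatcgaaaCCAATtggacaccga
Srebf1 (chr11:60210487-60210511, plus strand, 30 bases before the start): gcgcacatggCCAATcagcagccgc
Sc5d (chr9:42264310-42264334, plus strand, 24 bases before the start): aggcagccggCCAATcagcagccgg
Lss (chr10:76531533-76531557, minus strand, 62 bases before the start): gcgagctcggCCAATcagagcatca

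The box was not limited to members that changed. It was present in 8 of the 10 members with a window that were lower in both genotypes and in 11 of the 13 that passed the test in neither. The shorter sterol element searched, CACNCCAC, was in 3 of 26 members (11.5%), against 7.12% of all genes and 7.73% of measured ones. The longer form TCACNCCAC contains it and was in 1 member, Hmgcs1, and in 1.44% of all genes. The matches are given below with the 8 motif bases in capitals.

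Hmgcs1 (chr13:119690205-119690232, plus strand, 136 bases before the start): gtcaccgtctCACCCCACttcccaggtc
Insig1 (chr5:28071393-28071420, minus strand, 9 bases before the start): atggaaggtaCACGCCACgacactacac
Acat2 (chr17:12960889-12960916, minus strand, 181 bases before the start): ggatcctccaCACCCCACcctaacccga
Acat2 (chr17:12960761-12960788, plus strand, 53 bases before the start): ctatggcctcCACGCCACgcctcctcac

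CACGTG, an E-box that SREBP can also bind, was in 6 of 26 members (23.1%), 8.09% of all genes and 11.9% of measured genes. ACGTG, the core of the element bound by hypoxia-inducible factors, lies inside CACGTG and was in 8 of 26 (30.8%), 21.8% of all genes and 29.7% of measured genes. A match says only that these letters are in the window.

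Under OGD members were called in both directions, and most did not pass the test. In WT neurons 11 of the 33 members fell and 3 rose, while 19 did not pass the test (limma, adjusted p under 0.05 over all 14235 genes of the table). Hsd17b7 fell to 0.393 of its normoxic level, Elovl6 to 0.459, Fasn to 0.543 and Mvd to 0.558, and Scd1 rose to 1.56 times its level. Over all genes 21.6% were called higher and 22.8% lower, and the list was not tested against other genes. The members' median log2 fold change was -0.11, against -0.03 for all genes. In KO neurons 12 members fell, 2 rose and 19 did not pass, with a median of -0.27 against 0.0027 for all 14375 genes, of which 21.0% were called higher and 19.9% lower. The same 11 members were lower in both genotypes and the same 2, Scd1 and Fads2, higher in both; Elovl5 passed in WT and not in KO, and Pmvk in KO and not in WT, while the interaction with genotype called neither. The share of all genes called lower in both was 17.9% and higher in both 18.0%. In WT 3 members had OGD libraries that all lay below the normoxic ones (Hsd17b7, Elovl6 and Mvd), and in KO 7, as was so for 13.1% and 12.4% of all genes.

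**Figure D1:**
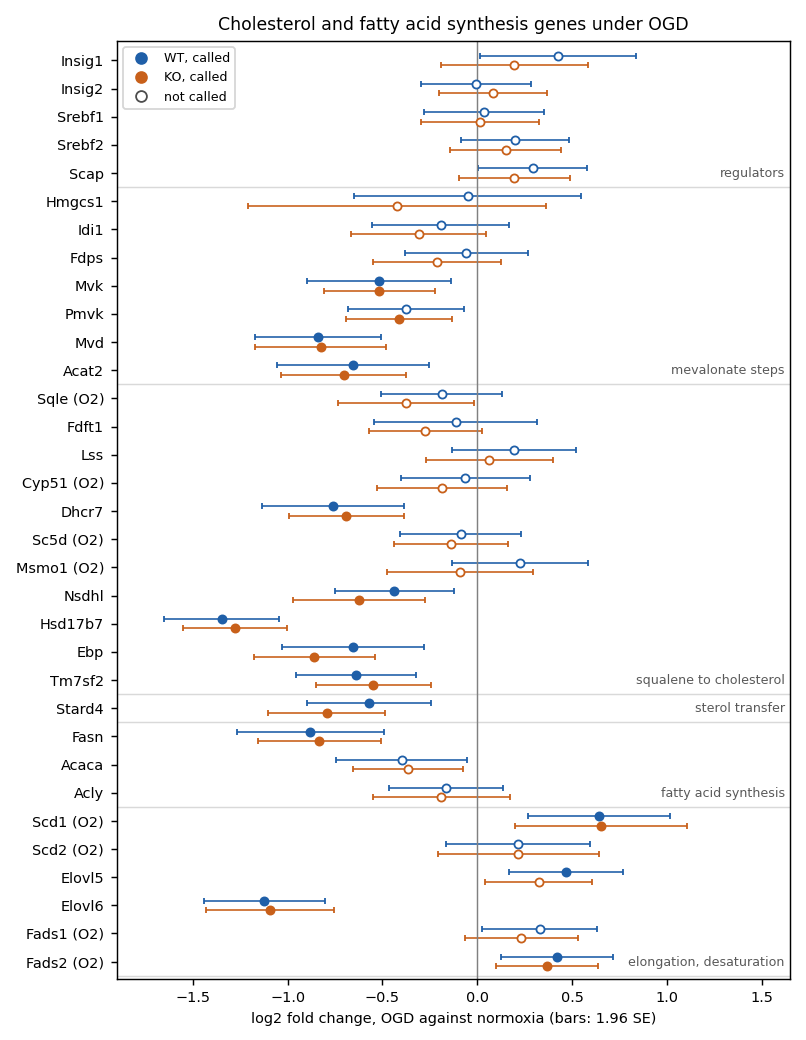
Log2 fold change of each member under OGD against normoxia (x axis) in WT (blue) and KO (orange), with bars of 1.96 standard errors and members grouped by role. Filled points passed the limma test. The largest falls are those of Hsd17b7 and Elovl6. Of the 8 members marked O2, whose enzymes use oxygen, none was called lower, against 22.8% of all genes in WT and 19.9% in KO. On the scale of library totals, not drawn here, Sqle was called lower in both genotypes and Sc5d in KO. Other settings given in the text also called Sqle or Sc5d lower.

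With replicates 2, 4 and 5 only, the calls shrank to 1 higher member (Scd1) and 2 lower members (Hsd17b7 and Elovl6), in WT and again in KO. On those libraries 8.01% of all genes were called higher and 8.93% lower in WT, and 8.28% and 8.01% in KO. The counts also depended on scaling. When each library was scaled to its own read total, the median of all genes moved to -0.30 in WT and -0.28 in KO, no member was called higher, and 16 members in WT and 18 in KO were called lower.

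The 5 regulators did not pass the test in either genotype. With the clipping kept Insig1 and Scap were called higher in WT (limma adjusted p = 0.0348 and 0.0175), and no regulator was called in KO. Srebf1 encodes SREBP-1, which drives mainly fatty acid genes. It was at 4.37, 4.47, 4.41, 4.06 and 3.77 log2 CPM in N_WT and at 4.21, 4.63, 4.10, 4.18 and 4.14 in OGD_WT. The N_KO values were 4.40, 4.23, 4.23, 4.60 and 3.92 and the OGD_KO values 4.08, 4.12, 4.29, 4.68 and 4.27, so all 4 groups overlapped. The log2 fold changes were 0.03 (SE 0.16) in WT and 0.01 (SE 0.16) in KO.

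Srebf2 encodes SREBP-2, which drives mainly cholesterol genes. It was at 7.59, 7.81, 7.45, 7.35 and 7.31 in N_WT against 7.63, 7.96, 7.70, 7.63 and 7.61 in OGD_WT, and at 7.58, 7.74, 7.58, 7.38 and 7.31 in N_KO against 7.62, 7.59, 7.66, 7.98 and 7.49 in OGD_KO. It was higher under OGD in all 5 WT cultures and 4 of 5 KO cultures, by 0.20 (SE 0.15) and 0.15 (SE 0.15), within the spread of the libraries (limma adjusted p = 0.275 and 0.441).

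Insig1 encodes the retention protein whose own transcription follows SREBP. Its N_WT values were 6.89, 6.88, 6.76, 6.58 and 6.28, and its OGD_WT values 6.81, 7.29, 7.20, 7.86 and 6.35. In KO the values were 7.00, 6.90, 6.70, 7.38 and 6.02 in normoxia and 6.84, 6.92, 6.97, 7.31 and 6.94 under OGD. The log2 fold change was 0.43 (SE 0.21, limma adjusted p = 0.103) in WT and 0.20 (SE 0.20, limma adjusted p = 0.453) in KO, with overlapping groups in both, and it passed in WT when OGD_WT replicate 5 was left out. The related retention protein gene Insig2 was at 4.05, 3.99, 4.05, 3.74 and 4.38 in N_WT and 3.97, 4.15, 4.05, 4.16 and 3.86 in OGD_WT. In N_KO it was at 3.94, 4.12, 3.72, 3.51 and 3.92, and in OGD_KO at 3.93, 3.75, 4.03, 3.96 and 3.95. Its log2 fold changes were -0.0055 (SE 0.15) and 0.08 (SE 0.14). Scap, the escort protein, had log2 fold changes of 0.29 (SE 0.15) in WT and 0.20 (SE 0.15) in KO, and passed in WT without N_WT replicate 5. On the scale of library totals Srebf1, Srebf2 and Insig2 had negative log2 fold changes in both genotypes, and Insig1 and Scap in KO, and again none of the 5 passed.

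In the mevalonate route 3 of 7 members fell in WT and 4 of 7 in KO, and none rose. Of all genes 22.8% fell in WT and 19.9% in KO, and 21.6% and 21.0% rose. With replicates 2, 4 and 5 only, 0 of the 7 members were called in either genotype. The fall was deepest for Mvd, mevalonate diphosphate decarboxylase, which makes isopentenyl diphosphate. It was at 5.05, 4.55, 4.69, 5.28 and 4.54 log2 CPM in N_WT and at 3.78, 3.76, 4.12, 3.90 and 4.35 in OGD_WT. In KO it went from 4.86, 4.52, 5.03, 5.21 and 4.52 to 3.94, 3.79, 3.72, 4.05 and 4.51. Every OGD library lay below every normoxic library of its genotype, in KO by a narrow gap. The log2 fold change was -0.84 (SE 0.17, limma adjusted p = 0.000418) in WT and -0.83 (SE 0.18, limma adjusted p = 0.00108) in KO. With replicates 2, 4 and 5 only it was -0.79 and -0.63, and it no longer passed (limma adjusted p = 0.0551 and 0.145).

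The kinase that acts before it, Mvk, fell by 0.52 on the log2 scale in each genotype, with SE 0.19 in WT and 0.15 in KO. The WT call was lost with the culture number as a block (limma adjusted p = 0.059), and without any one of 7 libraries (N_WT replicate 1, 3 or 4, or OGD_WT replicate 1, 2, 3 or 4). Pmvk, the kinase between these enzymes, fell by 0.41 in KO (SE 0.14, limma adjusted p = 0.0267), and its WT value of -0.38 (SE 0.16) missed the threshold (limma adjusted p = 0.0546). The KO call of Pmvk was lost without N_KO replicate 1, 2 or 3 or OGD_KO replicate 1 or 3, and the WT value passed without N_WT replicate 2 or OGD_WT replicate 4 or 5. Acat2, the cytosolic thiolase that condenses acetyl-CoA, fell by 0.66 (SE 0.20) in WT and fell by 0.70 (SE 0.17) in KO, and the WT call was lost with the block (limma adjusted p = 0.0552) and without N_WT replicate 2. Its values are uncertain, since 39.1% of its 50-base words are shared with Acat3. Hmgcs1, Idi1 and Fdps passed in neither genotype.

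Hmgcs1 makes HMG-CoA, and its libraries had the largest SD of all members in 3 of the 4 groups. It was at 9.82, 9.90, 9.72, 10.24 and 8.45 in N_WT and at 9.30, 10.42, 9.60, 10.09 and 8.47 in OGD_WT. In KO the normoxic values were 9.96, 9.74, 9.85, 10.17 and 9.13, and the OGD values 9.49, 10.56, 9.42, 9.96 and 7.31. Replicate 5 was the lowest library in each group, and the SD reached 1.23 in OGD_KO. The log2 fold change was -0.05 (SE 0.31) in WT and -0.42 (SE 0.40) in KO. Without OGD_KO replicate 5 the KO value was 0.09. Fdps, which makes farnesyl diphosphate, and Idi1, the isomerase, had log2 fold changes of -0.06 and -0.19 in WT and -0.21 and -0.31 in KO, and 26.2% and 17.7% of their 50-base words recur in other genes. Idi1 was called lower in WT without OGD_WT replicate 4 and in KO without N_KO replicate 5, and Fdps in KO without OGD_KO replicate 2.

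Of the 11 enzymes from squalene to cholesterol 5 fell in each genotype and none rose. The 5 were Hsd17b7, Dhcr7, Ebp, Tm7sf2 and Nsdhl in both. Of all genes 22.8% fell in WT and 19.9% in KO, and 21.6% and 21.0% rose. The change in Hsd17b7 was the deepest of all 33 members. It encodes the sterol 3-ketoreductase that works with Nsdhl in sterol demethylation. It was at 5.24, 5.66, 5.54, 5.06 and 5.45 log2 CPM in N_WT and at 3.83, 3.86, 3.94, 4.32 and 4.24 in OGD_WT. The N_KO libraries were at 5.48, 5.07, 5.21, 5.30 and 5.48 and the OGD_KO libraries at 4.18, 3.95, 4.05, 4.17 and 3.80. The conditions did not overlap in either genotype, and all 5 cultures of each were lower under OGD. The log2 fold change was -1.35 (SE 0.16, limma adjusted p = 8.05e-07) in WT and -1.28 (SE 0.14, limma adjusted p = 1.89e-06) in KO. On replicates 2, 4 and 5 only it was -1.24 and -1.31 and still passed (limma adjusted p = 0.000997 and 0.000491).

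**Figure D2:**
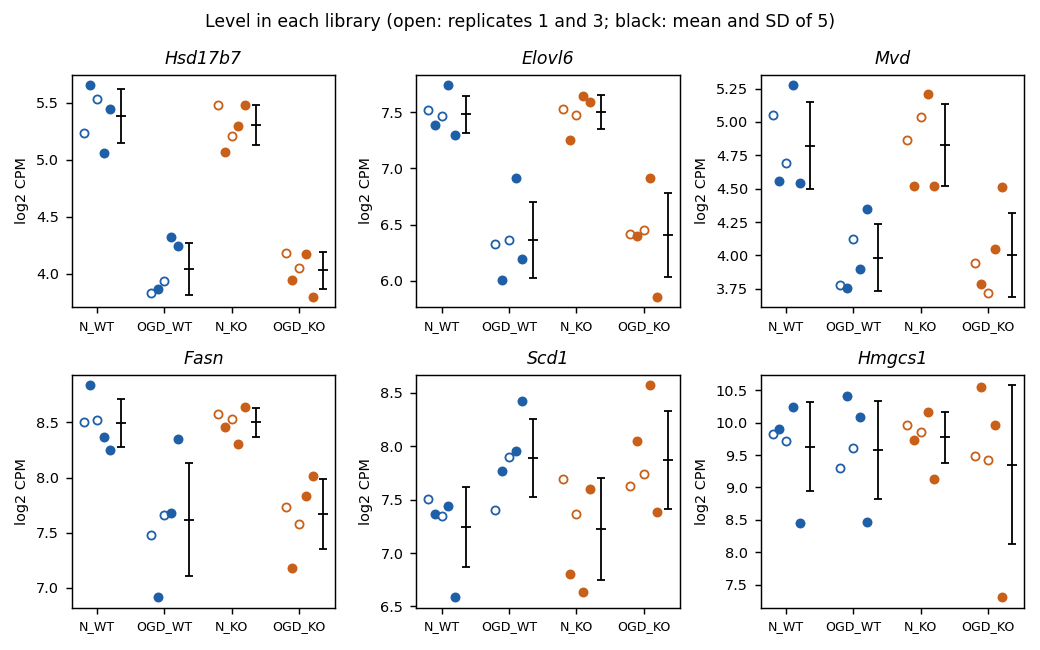
Log2 CPM of 6 members in each library of the 4 groups, in the scale of each genotype's own table; open points are replicates 1 and 3, and black bars give the mean and SD of 5 libraries. Hsd17b7 and Elovl6 do not overlap between normoxia and OGD, while the Hmgcs1 libraries of one group spread over more than a log2 unit and overlap.

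Dhcr7, which catalyses the last reduction to cholesterol, fell by 0.76 (SE 0.19) in WT and fell by 0.69 (SE 0.15) in KO. Its KO groups did not overlap, whereas in WT replicate 5 went the other way, from 4.70 to 5.05. Ebp, the sterol isomerase, fell by 0.66 (SE 0.19) in WT and fell by 0.86 (SE 0.16) in KO, from as few as 25 reads in a library. Tm7sf2, a sterol reductase, had log2 fold changes of -0.64 (SE 0.16) and -0.55 (SE 0.15), past the test in both, and 9.87% of its 50-base words are shared with Vps51. Nsdhl, the decarboxylating dehydrogenase, fell, with log2 fold changes of -0.44 (SE 0.16, limma adjusted p = 0.03) and -0.62 (SE 0.18, limma adjusted p = 0.00867), and its WT call was lost without any one of 5 libraries: N_WT replicate 1, 2 or 3, or OGD_WT replicate 1 or 3. None of these 4 passed with replicates 2, 4 and 5 only, where their log2 fold changes lay between -0.81 (Ebp in KO) and -0.30 (Nsdhl in WT).

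The other 6 enzymes of that stretch passed in neither genotype. Sqle, squalene epoxidase, had log2 fold changes of -0.19 (SE 0.16) in WT and -0.38 (SE 0.18) in KO. Its N_WT libraries were at 7.18, 7.26, 7.02, 6.63 and 6.97 and its OGD_WT libraries at 6.62, 6.82, 6.81, 7.30 and 6.57, with replicate 4 alone higher under OGD. Lss, Cyp51, Msmo1, Sc5d and Fdft1 lay between -0.11 (Fdft1) and 0.23 (Msmo1) in WT and between -0.27 (Fdft1) and 0.06 (Lss) in KO. On the scale of library totals Sqle was called lower in both genotypes (-0.47 and -0.67) and Sc5d in KO (-0.43). Sqle was also called lower in KO without N_KO replicate 5. With the clipping kept Sqle and Fdft1 were called lower in KO, as Fdft1 was with library totals.

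Stard4, a carrier that moves cholesterol between membranes, fell by 0.57 (SE 0.17, limma adjusted p = 0.0086) in WT and fell by 0.79 (SE 0.16, limma adjusted p = 0.000581) in KO. It was at 5.64, 5.67, 5.63, 5.33 and 5.46 in N_WT, and the OGD_WT libraries read 4.63, 4.75, 4.87, 5.61 and 5.01. The KO libraries went from 5.85, 5.40, 5.60, 6.07 and 5.39 to 4.89, 5.06, 4.91, 4.56 and 4.90. The KO groups were apart, and in WT only OGD replicate 4 reached the normoxic range. Replicates 2, 4 and 5 alone gave -0.36 and -0.77, neither past the test (limma adjusted p = 0.472 and 0.0661).

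Among the 3 enzymes of fatty acid synthesis 1 fell in both genotypes, as did 17.9% of all genes. Fasn, fatty acid synthase, was at 8.51, 8.84, 8.52, 8.37 and 8.25 in N_WT and 7.48, 6.92, 7.66, 7.67 and 8.35 in OGD_WT. In KO it was at 8.58, 8.46, 8.53, 8.30 and 8.64, and under OGD at 7.74, 7.18, 7.58, 7.83 and 8.02. The KO groups did not overlap, and in WT the OGD library of replicate 5 lay within the normoxic range. The log2 fold change was -0.88 (SE 0.20, limma adjusted p = 0.00115) in WT and -0.83 (SE 0.17, limma adjusted p = 0.000594) in KO, and with replicates 2, 4 and 5 it was -0.84 and -0.79 (limma adjusted p = 0.0516 and 0.102). Acaca, which makes malonyl-CoA, was at -0.40 (SE 0.18) and -0.37 (SE 0.15) and missed the threshold in both (limma adjusted p = 0.0689 and 0.0558). It passed in WT without replicate 5 of either condition, and in KO without N_KO replicate 4 or OGD_KO replicate 4 or 5. It shares 30.4% of its 50-base words with other genes. Acly, which supplies cytosolic acetyl-CoA from citrate, was at -0.17 and -0.19.

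Elongation and desaturation moved both ways. Elovl6, which lengthens saturated chains made by fatty acid synthase, was at 7.52, 7.39, 7.47, 7.74 and 7.30 in N_WT and 6.33, 6.00, 6.36, 6.91 and 6.19 in OGD_WT. The KO values were 7.53, 7.26, 7.48, 7.65 and 7.59 against 6.41, 6.40, 6.45, 6.92 and 5.86. No OGD library reached a normoxic one, and all 10 cultures were lower. Its log2 fold change was -1.12 (SE 0.16, limma adjusted p = 1.33e-05) in WT and -1.09 (SE 0.17, limma adjusted p = 7.23e-05) in KO, and replicates 2, 4 and 5 alone gave -1.11 in each genotype, past the test (limma adjusted p = 0.00541 and 0.00859).

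Scd1 introduces the first double bond into saturated chains. It was at 7.51, 7.36, 7.34, 7.44 and 6.59 in N_WT and at 7.40, 7.77, 7.90, 7.95 and 8.42 in OGD_WT. In KO it was at 7.70, 6.80, 7.37, 6.64 and 7.60 in normoxia and 7.62, 8.05, 7.74, 8.57 and 7.38 under OGD. The groups overlapped in both genotypes. Replicate 1 differed by -0.10 in WT and -0.07 in KO, and replicate 5 by 1.84 in WT but -0.22 in KO. Scd1 rose by 0.64 (SE 0.19, limma adjusted p = 0.00917) in WT and 0.65 (SE 0.23, limma adjusted p = 0.0302) in KO. With replicates 2, 4 and 5 only the rise was 0.92 and 0.99 (limma adjusted p = 0.0285 and 0.0258). The KO call was lost with the culture block (limma adjusted p = 0.0917) and without N_KO replicate 2 or 4 or OGD_KO replicate 2 or 4. Scaling to library totals left 0.36 in each genotype, past the test in neither.

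Scd2, the desaturase isoform best known from brain, was at 10.25, 10.56, 10.18, 9.98 and 9.34 in N_WT and 10.06, 10.32, 10.26, 10.14 and 10.61 in OGD_WT. The KO libraries were at 10.31, 9.73, 10.17, 9.74 and 10.35 in normoxia and 10.13, 10.38, 10.12, 10.95 and 9.81 under OGD. Its log2 fold change was 0.22 in each genotype (SE 0.19 and 0.22), inside the spread of the libraries, and below 0 on the scale of library totals. Fads2, the first desaturase of the polyunsaturated route, rose by 0.42 (SE 0.15, limma adjusted p = 0.0268) in WT and by 0.37 (SE 0.14, limma adjusted p = 0.038) in KO, with each of the 10 cultures higher. Its WT call was lost without N_WT replicate 3, 4 or 5 or OGD_WT replicate 3 or 5. The KO call was lost when any one of 9 of the 10 libraries was left out, all but OGD_KO replicate 2, and with the culture block (limma adjusted p = 0.0736). With replicates 2, 4 and 5 only the log2 fold change was 0.50 in each genotype, past the test in neither.

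Fads1, the second desaturase of that route, had log2 fold changes of 0.33 (SE 0.15) in WT and 0.23 (SE 0.15) in KO and was higher in all 10 cultures without passing (limma adjusted p = 0.0886 and 0.232), though it passed in WT without N_WT replicate 2. Elovl5, which lengthens polyunsaturated chains, rose by 0.47 (SE 0.15, limma adjusted p = 0.0173) in WT, a call lost without N_WT replicate 5. With replicates 2, 4 and 5 only Elovl5 was higher by 0.55 in WT and did not pass (limma adjusted p = 0.229). In KO it was higher by 0.32 (SE 0.14, limma adjusted p = 0.0803), which did not pass although the KO groups did not overlap. It passed without OGD_KO replicate 2. Non-overlapping higher groups were found for 0 members in WT and 2 in KO (Fads2 and Elovl5), against 13.9% and 13.4% of all genes. On the scale of library totals the log2 fold changes of Elovl5 and Fads2 in WT were 0.19 and 0.14, and neither passed.

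The members were also divided by whether their enzyme uses molecular oxygen, since OGD lowered it to 1%. Those that do are Sqle, Cyp51, Msmo1 and Sc5d in the sterol route and Scd1, Scd2, Fads1 and Fads2 among the desaturases. Of these 8, 2 rose and none fell in either genotype, where 21.6% of all genes in WT and 21.0% in KO rose and 22.8% and 19.9% fell, with a median log2 fold change of 0.22 in WT and 0.06 in KO. Of the other 25 members 1 rose and 11 fell in WT, and none rose and 12 fell in KO, with medians of -0.38 and -0.41. The 4 oxygen-using sterol enzymes lay between -0.19 (Sqle) and 0.23 (Msmo1) in WT. In KO all 4 were below 0, between -0.38 (Sqle) and -0.09 (Msmo1). The desaturases lay between 0.22 (Scd2) and 0.64 (Scd1) in WT and between 0.22 (Scd2) and 0.65 (Scd1) in KO. The falls among the 18 cholesterol enzymes, 8 in WT and 9 in KO, were in enzymes that use no oxygen, but only 4 of the 18 use it. On the scale of library totals Sqle was called lower in both genotypes and Sc5d in KO. With the clipping kept Sqle was called lower in KO (limma adjusted p = 0.0177) and Fads1 higher in WT (limma adjusted p = 0.0309). With library weights, whose estimation did not converge, Sqle and Sc5d were called lower in both genotypes. Fads1 was then called higher in both genotypes and Msmo1 in WT. With replicates 2, 4 and 5 only, 1 of the 8 rose and 2 of the 25 fell in each genotype. The difference between these divisions was not tested.

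**Figure D3:**
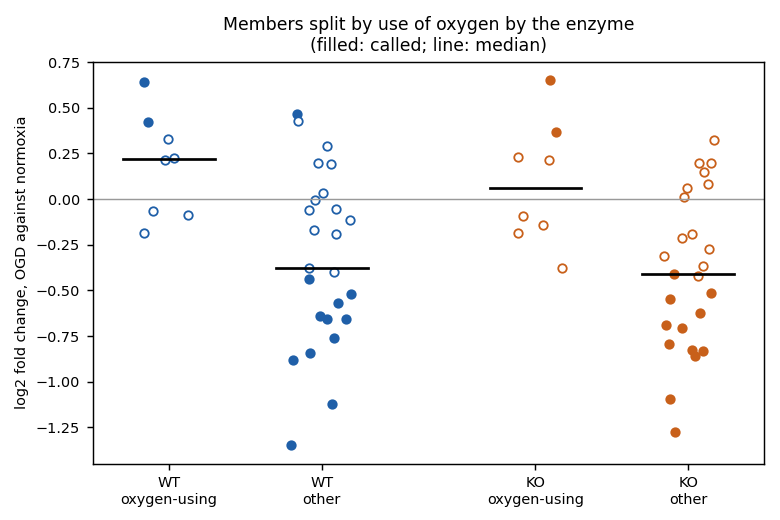
Log2 fold change under OGD of each member (1 point per gene), divided by genotype and by whether the enzyme uses oxygen; filled points passed the limma test and lines are medians. The 8 oxygen-using members have medians of 0.22 in WT and 0.06 in KO, and the other 25 have medians of -0.38 and -0.41.

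The falls were not equally shared by the cultures. A culture is the pair of N and OGD libraries that carry the same number, genotype label and batch. The calls were made on these same libraries, so the counts by culture are not separate support for them. The counts were not compared between the genotypes. All 12 members called lower in KO were lower in each of the 5 KO cultures. Of the 11 called lower in WT, 4 were lower in all 5 cultures (Hsd17b7, Elovl6, Mvd and Nsdhl) and 7 in 4 of 5. WT culture 5 was the exception for 6 of these 7, and culture 4 for Stard4. In WT culture 5 Acat2 was higher under OGD by 0.64, Mvk by 0.45, Dhcr7 by 0.35, Ebp by 0.33, Tm7sf2 by 0.12 and Fasn by 0.10. The median difference over all 33 members ran from -0.52 in culture 1 to 0.24 in culture 4 of WT, and from -0.44 in culture 1 to -0.11 in culture 2 of KO.

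Of 98 related genes outside the list of members 88 were tested in WT and 90 in KO, and 16 rose and 28 fell in WT and 14 rose and 22 fell in KO. Over all genes 21.6% rose and 22.8% fell in WT and 21.0% and 19.9% in KO, and neither this list nor the smaller ones within it were tested against other genes. Among genes that handle cholesterol, 4 of 15 rose and 7 fell in WT, and 4 rose and 6 fell in KO. Abcg1, a sterol exporter, fell, with log2 fold changes of -1.02 (SE 0.20) in WT and -0.77 (SE 0.17) in KO. Soat1, which esterifies cholesterol, rose by 0.95 (SE 0.18) and 0.88 (SE 0.15), and Npc2, a lysosomal cholesterol carrier, by 0.83 (SE 0.15) and 0.76 (SE 0.15).

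The genes that process or degrade SREBP and its partners gave no rise in 11 tested, with 4 lower in WT and 2 in KO. Both that fell in KO, Rnf145 (log2 fold change -0.63 in WT and -0.47 in KO) and Faf2 (-0.53 and -0.42), belong to protein degradation at the endoplasmic reticulum. The KO call of Rnf145 was lost without N_KO replicate 1 or 5. In the isoprenoid branch, which draws on the mevalonate route, 1 of 11 rose and 3 fell in WT, and 2 rose and 2 fell in KO. For these lists too, the shares of all genes were 21.6% higher and 22.8% lower in WT, and 21.0% and 19.9% in KO. Rabggtb, a subunit of the Rab prenyltransferase, rose by 0.79 and 0.82, while Pdss1, for the ubiquinone side chain, and Dhdds, for dolichol, fell, with log2 fold changes of -0.52 and -0.51 for Pdss1 and -0.44 and -0.55 for Dhdds. Among other fatty acid genes 12 of 22 fell and 1 rose in WT, and 10 fell and 0 rose in KO. These included Acsl1, an acyl-CoA synthetase (log2 fold change -1.12 in WT and -1.08 in KO), and Oxsm, a mitochondrial ketoacyl synthase (-1.09 and -1.03).

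Of the fatty acid oxidation genes 7 of 17 rose and 1 fell in WT, and 6 of 18 rose and 1 fell in KO. Cpt1a, which loads fatty acids for import into mitochondria, rose by 1.25 (SE 0.15) and 1.13 (SE 0.16), and Acadl, a long-chain dehydrogenase, by 1.11 (SE 0.14) and 1.12 (SE 0.16). Cpt2, which completes that import, fell, with log2 fold changes of -1.46 (SE 0.21) and -1.19 (SE 0.24). Its level was low, with a mean of 1.85 log2 CPM in N_WT and 0.39 in OGD_WT. A gene without reads stood at -1.60 to -1.21. Oxsm and Abcg1, named above, were also low in OGD_WT, at means of 1.39 and 1.79. In lipid storage 3 of 12 rose and 1 fell in WT and 2 of 13 rose and 1 fell in KO, shares of rises near those of all genes (21.6% and 21.0%). Lpin1, a phosphatidate phosphatase, rose by 1.16 (SE 0.15) and 1.08 (SE 0.14), and Dgat2, which makes triglycerides, fell, with log2 fold changes of -0.81 (SE 0.17) and -1.16 (SE 0.19). Cpt1a, Acadl, Cpt2, Lpin1, Dgat2, Acsl1, Oxsm and Npc2 still passed with replicates 2, 4 and 5 only in both genotypes. Soat1, Abcg1 and Rabggtb then passed in WT and not in KO, and Pdss1, Dhdds, Rnf145 and Faf2 in neither.

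The knockout of ciRS-7 was compared with WT within each condition. In normoxia none of the 33 members was called (limma, 14152 genes, of which 0.0353% were called), and none had an unadjusted p under 0.05, which 1.81% of all genes had. The log2 differences, KO minus WT, ran from -0.17 (Insig2) to 0.18 (Hmgcs1), with a median of 0.03. The 3 smallest unadjusted p-values belonged to Insig2, Nsdhl and Stard4. Insig2 was at 3.99 ± 0.23 log2 CPM (SD, n = 5) in N_KO and 4.16 ± 0.23 in N_WT, a difference of -0.17 with SE 0.15. Nsdhl was at 4.99 ± 0.22 and 4.82 ± 0.30, a difference of 0.16 (SE 0.16), and Stard4 at 5.82 ± 0.30 and 5.67 ± 0.15, a difference of 0.15 (SE 0.15). In all 3 the groups overlapped.

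Under OGD again none of the members was called (14185 genes, 0.0282% called), and none had an unadjusted p under 0.05, against 1.78% of all genes. The log2 differences ran from -0.24 (Msmo1) to 0.07 (Fasn), with a median of -0.06. Fdps, Ebp and Msmo1 had the smallest unadjusted p-values. Fdps was at 6.37 ± 0.35 (SD, n = 5) in OGD_KO and 6.59 ± 0.38 in OGD_WT, a difference of -0.22 (SE 0.20). For Ebp the levels were 2.17 ± 0.20 and 2.38 ± 0.43 (difference -0.22, SE 0.20), and for Msmo1 7.36 ± 0.48 and 7.60 ± 0.41 (difference -0.24, SE 0.23). With replicates 2, 4 and 5 only, 0 members were called in either condition, against 0.205% of all genes in normoxia and 0.127% under OGD.

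**Figure D4:**
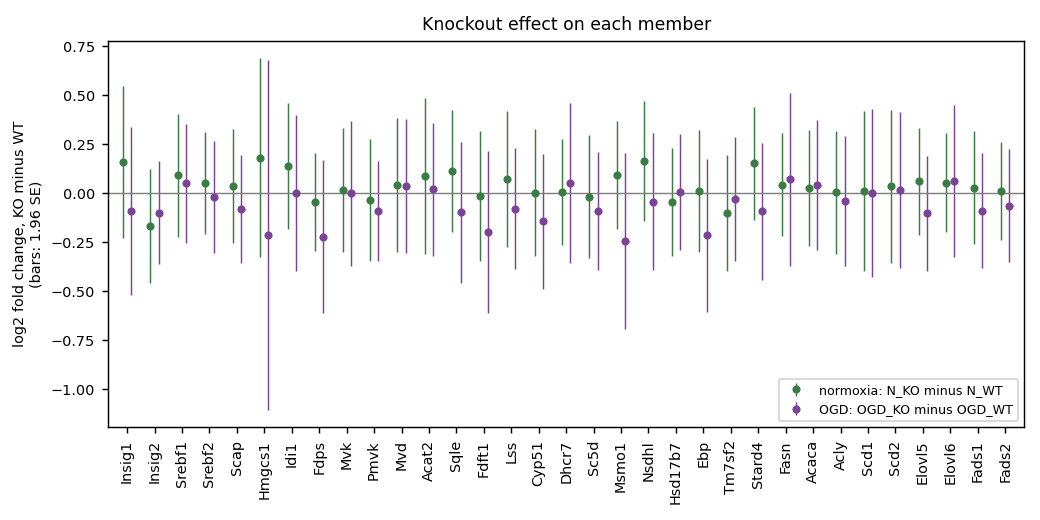
Log2 difference KO minus WT of each member in normoxia (green) and under OGD (purple), with bars of 1.96 standard errors. Every bar crosses 0, and the widest are those of Hmgcs1.

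The difference between the OGD responses of KO and WT was tested as an interaction over all 20 libraries. No member was called and none had an unadjusted p under 0.05, and over 13688 genes 0.0% were called and 99 (0.723%) had an unadjusted p under 0.05. With replicates 2, 4 and 5 only, again 0 members were called. Among the members the interaction, KO minus WT, ran from -0.40 (Hmgcs1) to 0.07 (Tm7sf2) with a median of -0.08, against -0.0094 for all genes. The smallest unadjusted p was that of Msmo1, at -0.34 with a 95% interval from -0.96 to 0.27. The intervals for Stard4 (from -0.74 to 0.24) and Ebp (from -0.79 to 0.31) show how large a difference between genotypes these libraries leave room for.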

How the data were processed

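The 33 members and all gene lists were chosen with earlier results of these data known. The authors deposited 4 tables, 1 per comparison, of log2 CPM values for 10 libraries and 14152 to 14375 genes each, as the values and file names show. The build mm10 is named in the submitters' processing notes, while aligner, counting and scaling are not given in the sources used here. The values show that the scaling was not to the plain read total of each library. The values show that in each gene and group the lowest and highest deposited library had been drawn in to the 10th and 90th percentile (weights 0.6 and 0.4). This was undone. As deposited, 45.5% to 92.8% of a library's values up to 500 reads corresponded to whole reads within 0.05 reads, and afterwards at least 99.91% did. A gene's reads were the same in both tables of a library for at least 99.98% of genes.

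Each comparison was fitted in its own table with limma 3.58.1 in R 4.3.3 (lmFit, eBayes with trend), without block or batch, two-sided. The threshold was 0.05 for p-values adjusted by Benjamini and Hochberg's method over all genes of the table. The interaction used the recovered reads of 20 libraries on 1 median-of-ratios scale (prior count 2), with the culture as a correlated block (consensus correlation -0.19). N and OGD libraries of 1 number share a genotype label and a batch, so the numbers pair them. Their deviations from the group means correlated between -0.64 and 0.06 in WT and between -0.79 and -0.07 in KO. With negative correlations a fit without the pairing tends to give smaller standard errors than a paired fit. With the culture number as a block 3 members were called higher and 9 lower in WT, and 0 and 12 in KO. Numbers do not pair KO with WT: their batches differ for every number except 1. The p-values measure the spread between these libraries.

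Values of every library are given for the largest rise and fall per role in WT among members called in both genotypes, and for Srebf1, Srebf2, Insig1, Insig2, Scd1 and Scd2. Libraries of Hmgcs1 and Sqle were added after their values were seen. From each related list up to 2 rises and 2 falls called in both genotypes were named, at a mean log2 CPM of at least 1. Not every gene that this rule gives is reported here. Shared 50-base words come from GENCODE release 21. Whether a library is a weighted sum of others was examined by non-negative least squares on recovered reads (genes with at least 200 in each library), after seeing the data. The fits were tested on simulated data. The alternatives are given in the closing section.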

Additional observations from a re-analysis of the deposited data

Results flagged for a closer look

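Among the 132 sets of 5 libraries (33 members in 4 groups), 10 held a library whose gap to its nearest neighbour was above 0.71 of the set's range. Chance gives about 6.6 if the 5 libraries of a set are independent. OGD_WT replicate 2 was high for Srebf1 (4.627 log2 CPM, others 4.10 to 4.21), Srebf2 (7.957, others 7.61 to 7.70) and Nsdhl (4.588, others 4.14 to 4.22). N_WT replicate 5 was low for Hmgcs1 (8.454, others 9.72 to 10.24) and for Scd1 (6.588, others 7.34 to 7.51), and N_WT replicate 4 was low for Sc5d (5.655, others 6.16 to 6.30). OGD_KO replicate 4 was high for Insig1 (7.311, others 6.84 to 6.97). Replicate 2 was high for Fdps in OGD_KO (7.135, others 6.23 to 6.48) and low in N_KO (6.389, others 6.76 to 6.86). N_KO replicate 5 was low for Acat2 (5.635, others 6.10 to 6.26). All 10 were libraries of replicates 2, 4 and 5. Only the lowest or highest library of a set can be flagged, and replicates 1 and 3 seldom held that place, so this was largely fixed in advance.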

How the results depend on the processing

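Hsd17b7 and Elovl6 fell and passed under every alternative run in both genotypes, including replicates 2, 4 and 5 only. Members called higher and lower under OGD numbered 3 and 11 in WT and 2 and 12 in KO. With the clipping kept 6 were higher in WT (Scd1, Elovl5, Fads2, Insig1, Scap and Fads1). With library totals 0 were higher in each genotype, with library weights, whose estimation did not converge, 8 and 20 in WT and 7 and 20 in KO, plus 2 higher and 7 lower for the knockout under OGD. With batch 3 cultures 7 were lower in WT, and 1 was higher and 2 lower in KO. The batch covariate left 1 higher in KO. Replicates 2, 4 and 5 only, chosen after seeing the data, left 1 higher and 2 lower in each genotype. Leaving out 1 library gave 2 to 4 higher and 9 to 13 lower in WT, and 0 to 2 and 11 to 14 in KO. The replicate block, which pairs N with OGD by culture, left 0 higher in KO. Related genes called were 16 higher and 28 lower in WT and 14 and 22 in KO. They became 9 and 45, and 8 and 40, with library totals. Library weights gave 32 and 47, and 31 and 37. Replicates 2, 4 and 5 gave 8 and 11, and 5 and 9, and batch 3 cultures 5 and 9 in KO. Apart from smaller sets of libraries, the cause was not tested.

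Signs turned for members that had not passed, not all of them near 0 (Hmgcs1 in KO was at -0.42 with SE 0.40). With library totals these were, in WT, Srebf1 (-0.24), Srebf2 (-0.079), Lss (-0.085), Msmo1 (-0.053) and Scd2 (-0.065), and in KO Insig1 (-0.096), Insig2 (-0.21), Srebf1 (-0.27), Srebf2 (-0.14), Scap (-0.094), Lss (-0.23), Scd2 (-0.075) and Fads1 (-0.0597). With batch 3 cultures and with replicates 2, 4 and 5 only, in WT, they were Hmgcs1 (0.066 and 0.13), Insig2 (0.015 and 0.0202), Fdft1 (0.012 and 0.054), Fdps (0.044 and 0.091), Cyp51 (0.032 and 0.028) and Sc5d (0.011 and 0.0601). With the clipping kept Insig2 (0.0084) and Srebf1 (-0.014) turned in WT and Srebf1 (-0.023) in KO, and with median-of-ratios scaling Insig2 in WT (0.0093). With library weights Srebf1 (-0.29) and Cyp51 (0.027) turned in WT, and Lss (-0.099), Msmo1 (0.032) and Scd2 (-0.0196) in KO. Leaving out 1 library gave, in WT, Hmgcs1 from -0.34 to 0.22, Insig2 from -0.081 to 0.078, Srebf1 from -0.076 to 0.097, Fdft1 from -0.29 to 0.049, Fdps from -0.21 to 0.017 and Cyp51 from -0.18 to 0.067. In KO it gave Hmgcs1 from -0.73 to 0.086, Insig2 from -0.00056 to 0.15, Srebf1 from -0.084 to 0.095, Lss from -0.048 to 0.15 and Msmo1 from -0.27 to 0.063.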

Other observations

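Marker genes of the cell types a cortical culture can hold moved under OGD as follows. Of all genes 21.6% were called higher and 22.8% lower in WT, and 21.0% and 19.9% in KO. Of 12 neuron markers 7 were called lower in WT and 8 in KO, and none higher. Of 10 tested astrocyte markers 7 were higher and 2 lower in WT, and 6 higher and 1 lower in KO. Of 12 progenitor and proliferation markers 8 were higher in each genotype, with 1 lower in WT and 0 in KO. Of 8 tested oligodendrocyte lineage markers 1 was higher and 2 lower in WT, and 3 higher in KO. Of 2 tested endothelial and mural markers 1 was higher and 1 lower in WT and 1 higher in KO. With replicates 2, 4 and 5 only, 4 neuron markers were lower in WT and 6 in KO. Astrocyte markers then gave 6 higher in WT, and 3 higher and 1 lower in KO. Progenitor and proliferation markers gave 7 higher in WT and 6 in KO, and oligodendrocyte lineage markers 0 in either. On those libraries 8.01% of all genes were higher and 8.93% lower in WT, and 8.28% and 8.01% in KO. The part of the markers' cell types in the changes of the lipid genes was not tested.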
